A study of Homo sapiens with 6 samples.

Results

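The genes described here encode the machinery of homologous recombination and of the Fanconi anaemia pathway of DNA crosslink repair. They are 38 genes of 22375 that the arrays measured under a single gene symbol. They were taken by symbol from a list made with earlier results of these data known, and all 38 were found. Each was represented by 1 transcript cluster, the array's unit for the exons of a gene. The cells were H1299, an established human line of non-small cell lung cancer that lacks p53 protein, in its parental form. Total RNA was taken after 14 days in culture with DMSO alone (3 arrays) or with 500 nM PD 0332991 in DMSO (3 arrays). PD 0332991, or palbociclib, inhibits the kinases CDK4 and CDK6, which phosphorylate the retinoblastoma protein, and the title of the study frames the drug as a means to reactivate that protein. Both groups share the vehicle, the medium and the duration, and they come from a single cell line.

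Homologous recombination repairs a DNA break by copying an intact sister chromatid, and is therefore largely confined to cells that have replicated their DNA. The break is first resected to single-stranded DNA by the MRE11, RAD50 and NBN complex and by nucleases such as EXO1. BRCA1, BARD1 and PALB2 then help to load a recombinase, which invades the sister duplex with the aid of accessory proteins. The joined molecules are separated either by dissolution, through the BLM complex, or by cutting, through nucleases such as GEN1 and the pair MUS81 and EME1. The Fanconi proteins recognise a crosslink that has stalled a replication fork, and a core ligase attaches ubiquitin to FANCI and its partner.

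Under PD 0332991, 34 of the 38 genes fell, RAD50 and HELQ rose, and FANCF and RMI2 did not pass the test. The test was limma's moderated test over all 22375 genes, and a gene was called at a Benjamini-Hochberg adjusted p under 0.05. Over all genes tested, 18.5% were called lower and 19.6% higher. Because the 38 genes were chosen with earlier results of these data known, the contrast with these shares is a description. The median log2 change of the 38 genes was -1.37, on the log2 scale that the authors deposited, against 0.00 for all genes tested. The changes ran from -4.28 in EXO1 to 0.73 in HELQ, with standard errors of 0.07 to 0.13. Against a minimum change of 1 (limma's treat), 19 of the 38 genes fell, where 3.16% of all genes did so. The groups of 3 arrays did not overlap in 37 of the 38 genes, RMI2 being the exception, and did not overlap in 47.5% of all genes.

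**Figure D1:**
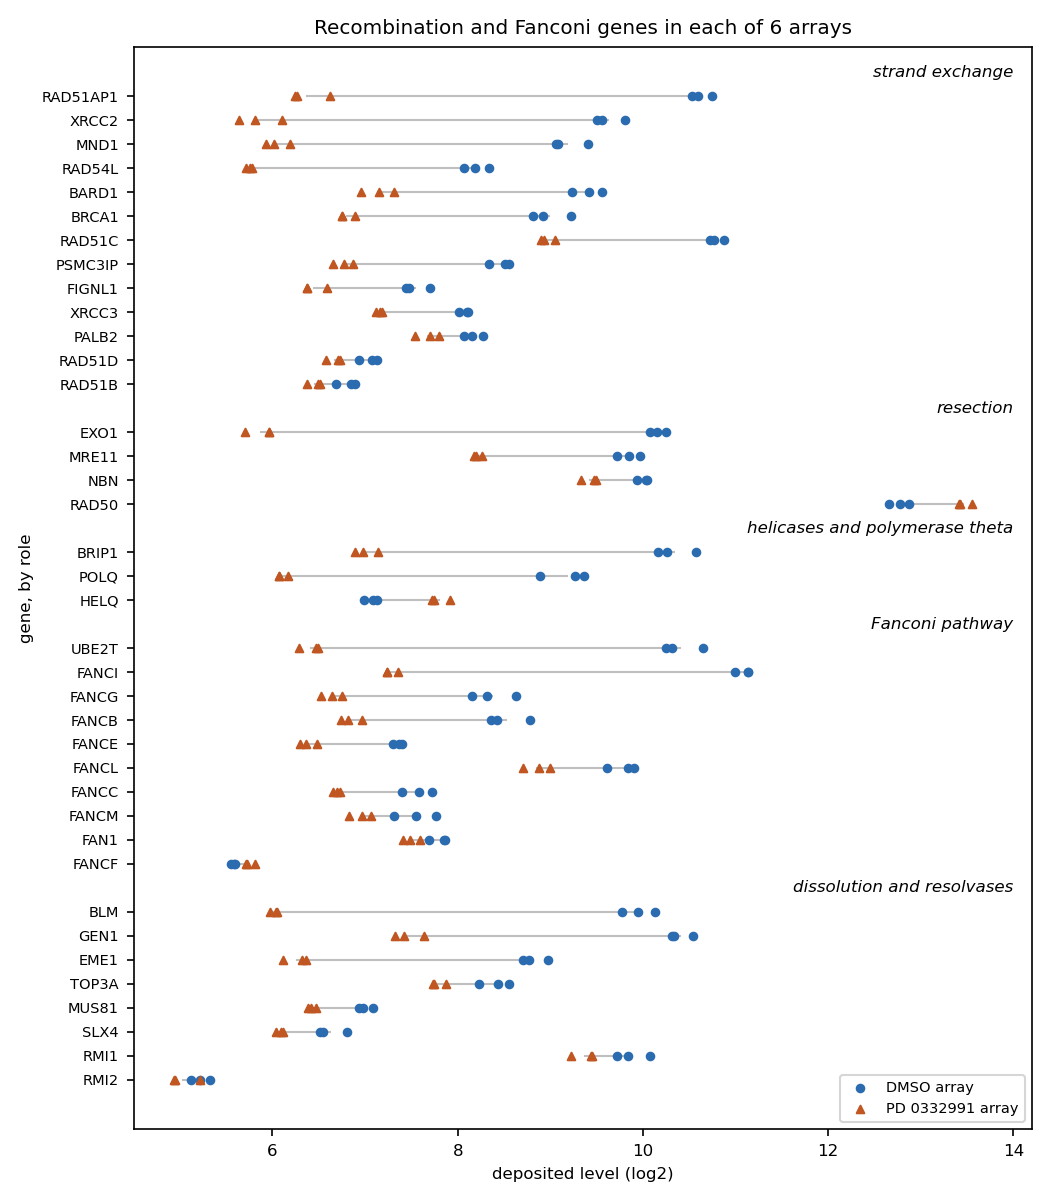
Deposited log2 level of each recombination or Fanconi gene (rows, grouped by role) in the 3 DMSO arrays (circles) and the 3 PD 0332991 arrays (triangles), with a grey line between the group means. All 3 PD 0332991 arrays lie below all 3 DMSO arrays in 34 genes and above them in 3 (RAD50, HELQ and FANCF). Levels of different genes come from different probes and are not to be ranked against each other.

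In the same arrays 29 of 29 measured genes of a DNA replication list fell, with a median log2 change of -2.66, and the part of this shift in the repair genes was not tested. In RNA from whole cultures, fewer cells in S phase or G2 and less transcript per cell cannot be told apart. The median deposited level of the 38 genes was 8.88, 8.64 and 8.63 in DMSO replicates 1 to 3 and 6.75, 6.71 and 6.70 in PD 0332991 replicates 1 to 3. DMSO replicate 1 was the highest of its group in 31 of the 38 genes, where it was the highest in 34.8% of all genes. DMSO replicate 3 was the lowest of its group in 28 of the 38 genes, where it was the lowest in 32.8% of all genes. On the second principal component DMSO replicate 1 lay with PD 0332991 replicate 2, at 34.2 and 36.2, and the other arrays lay between -32.8 and -4.05. Without DMSO replicate 1 the median change was -1.29 and 33 genes fell, and without both arrays it was -1.25 and 33 genes fell. Of 8 epithelial and carcinoma markers, the keratin gene KRT8 rose by 0.79 (mean level 14.0 in DMSO and 14.8 under the drug), the cadherin gene CDH2 rose by 0.26 and VIM fell by 0.57 (15.7 and 15.1). The other 5 did not pass, among them KRT18 at 14.1 and 14.0, and KRT19 and CDH1 lay below every array median. Of 11 measured markers of blood, endothelial and fibroblast cells, 8 lay below every array median. The summed level of the 11 was 54.8 to 57.0 in DMSO and 53.1 to 54.7 under the drug, and that of the 10 other than CD68 was 42.2 to 44.2 and 42.6 to 44.2. CD68, which also marks lysosomes in other cells, fell by 2.30 and PECAM1 rose by 0.40 from a level below the array medians.

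The promoters of these genes are shown as a description, because the pathway of the drug ends in E2F transcription factors. Whether E2F sites took part in the changes was not tested. RefSeq windows of 300 bases (build GRCh38.p14, 250 before and 50 after each listed start) were held for 35 of the 38 genes; NBN, FANCI and RMI2 were not matched. The windows were searched on both strands for the E2F letters TTTCCCGC, TTTCGCGC, TTTGCCGC and TTTGGCGC. At least 1 match lay in the windows of 7 of the 35 genes (20%): XRCC2, MND1, PSMC3IP, EXO1, FANCC, RMI1 and GEN1. Of 15199 tested genes with a window, 5.13% had a match. A gene was counted if any of its listed starts had a match, so genes with more starts had more chances. All of the 7 genes except XRCC2 had more than 1 listed start. The shares were not adjusted for the number of starts, and the difference between them was not tested. The 7 genes all fell, from -4.28 in EXO1 to -0.50 in RMI1, but 34 of the 38 genes fell, with or without a match. RAD51AP1, BLM and UBE2T fell by 3.93 or more without a match. The letters of the CHR element, TTTGAA and TTTAAA, neither of which is contained in an E2F word, were in 9 of the 35 genes (25.7%) and in 24.9% of the 15199, and HELQ, which rose, was among the 9. A match describes letters and does not show binding. Only these exact words were searched, so a window without a match is not shown to lack an E2F site. The 100 bases below run 5′ to 3′ from 70 before the start to 30 after it, with E2F matches in capitals, for 5 genes with a match that fell, for BRCA1, and for RAD50 and HELQ, which rose.
EXO1, chr1:241848134-241848233, plus strand: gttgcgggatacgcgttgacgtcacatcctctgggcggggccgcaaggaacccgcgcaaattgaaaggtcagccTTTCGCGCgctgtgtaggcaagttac
XRCC2, chr7:152676112-152676211, minus strand: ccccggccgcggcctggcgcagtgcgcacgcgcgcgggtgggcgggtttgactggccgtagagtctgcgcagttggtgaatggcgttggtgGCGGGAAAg
GEN1, chr2:17753799-17753898, plus strand: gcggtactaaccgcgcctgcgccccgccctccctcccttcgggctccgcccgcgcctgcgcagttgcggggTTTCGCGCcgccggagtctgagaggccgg
MND1, chr4:153344618-153344717, plus strand: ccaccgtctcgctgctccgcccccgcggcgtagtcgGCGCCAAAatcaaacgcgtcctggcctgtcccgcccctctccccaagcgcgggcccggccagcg
FANCC, chr9:95317680-95317779, minus strand: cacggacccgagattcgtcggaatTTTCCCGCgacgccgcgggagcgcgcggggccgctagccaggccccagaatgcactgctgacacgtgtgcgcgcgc
BRCA1, chr17:43125335-43125434, minus strand: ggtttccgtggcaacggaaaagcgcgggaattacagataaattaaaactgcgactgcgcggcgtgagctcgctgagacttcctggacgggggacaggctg
RAD50, chr5:132556907-132557006, plus strand: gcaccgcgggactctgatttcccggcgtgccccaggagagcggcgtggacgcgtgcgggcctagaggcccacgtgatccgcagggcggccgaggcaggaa
HELQ, chr4:83455854-83455953, minus strand: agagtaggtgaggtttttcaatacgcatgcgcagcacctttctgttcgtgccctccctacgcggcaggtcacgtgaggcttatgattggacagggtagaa
In EXO1 and GEN1 the match is the same word, TTTCGCGC, at position 5 and 2 of the gene, counted from 1 at the start. XRCC2 carries its match at position 22, and MND1 at position -34, both as the reverse complement of a listed word. Positions hold for the start shown: from the other listed start of MND1 its match lies at position 6. EXO1, GEN1 and FANCC each have another listed start whose window holds no match. FANCC has a second match outside the bases shown. No match to these exact E2F words lies in the windows of BRCA1, RAD50 and HELQ.

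All 13 genes of strand exchange and its mediators fell, with a median log2 change of -1.82 and a range from -4.25 to -0.35. RAD51AP1, an accessory factor that stimulates the recombinase, had the deepest fall of the 13. Its level was 10.74, 10.53 and 10.60 in the DMSO arrays and 6.26, 6.62 and 6.25 in the PD 0332991 arrays. It fell by 4.25 ± 0.12 (SE, n = 3 per group; limma adjusted p = 1.06e-07), and the groups were far apart. XRCC2, a paralogue of the recombinase, fell by 3.77 ± 0.13, and MND1, which acts with PSMC3IP in stabilising the recombinase filament, fell by 3.13 ± 0.11. RAD54L, a motor protein that remodels the invaded duplex, fell by 2.45 ± 0.08.

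BRCA1 and BARD1, which form a ubiquitin ligase that promotes resection and loading of the recombinase, fell by nearly the same amount. BRCA1 was at 9.22, 8.92 and 8.82 in the DMSO arrays and at 6.76, 6.89 and 6.76 in the PD 0332991 arrays. It fell by 2.19 ± 0.11 (SE, n = 3 per group; limma adjusted p = 1.94e-06). BARD1 fell by 2.26 ± 0.12, from 9.40 ± 0.16 (SD) to 7.14 ± 0.18. PALB2, which links BRCA1 to the loading of the recombinase, fell by 0.49 ± 0.09 (adjusted p = 0.00316), and its DMSO arrays (8.07 to 8.28) lay above its PD 0332991 arrays (7.54 to 7.80).

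The recombinase paralogues spread over the range of the role. RAD51C fell by 1.82 ± 0.08 (SE, n = 3 per group) and XRCC3, its partner in the CX3 complex, fell by 0.92 ± 0.07. RAD51D and RAD51B, partners of RAD51C and XRCC2 in the BCDX2 complex, fell by 0.38 ± 0.08 and 0.35 ± 0.08. The smallest change was that of RAD51B, with levels of 6.89, 6.85 and 6.69 in the DMSO arrays and 6.37, 6.49 and 6.52 in the PD 0332991 arrays (limma adjusted p = 0.00930). Its groups did not overlap, but the gap between the nearest arrays was small, and without DMSO replicate 1 and PD 0332991 replicate 2 its adjusted p was 0.0527. PSMC3IP fell by 1.70 ± 0.09 and FIGNL1, an ATPase that removes the recombinase from DNA, fell by 1.10 ± 0.10.

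Of the 4 resection genes EXO1, MRE11 and NBN fell and RAD50 rose, with a median of -1.10. EXO1, a 5′ exonuclease of long-range resection, was at 10.25, 10.15 and 10.07 in the DMSO arrays and at 5.96, 5.96 and 5.71 in the PD 0332991 arrays. It fell by 4.28 ± 0.09 (SE, n = 3 per group; limma adjusted p = 4.01e-08), the largest change of the 38 genes. The nuclease subunit gene MRE11 fell by 1.63 ± 0.08, from 9.85 ± 0.13 (SD) to 8.21 ± 0.04. NBN, the subunit that recruits the ATM kinase, fell by 0.57 ± 0.07 (adjusted p = 0.000384). RAD50, the coiled-coil ATPase that tethers DNA ends in the same complex, read 12.87, 12.78 and 12.66 without the drug and 13.41, 13.55 and 13.42 with it. It rose by 0.69 ± 0.08 (adjusted p = 0.000221), every drug array lying above every DMSO array.

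Among the helicases and polymerase theta, BRIP1 and POLQ fell and HELQ rose. BRIP1, a helicase that binds BRCA1, was at 10.58, 10.26 and 10.16 in the DMSO arrays and at 6.98, 7.14 and 6.89 in the PD 0332991 arrays, and fell by 3.33 ± 0.12 (SE, n = 3 per group; limma adjusted p = 3.89e-07). POLQ, the polymerase of theta-mediated end joining, a pathway that also starts from resected ends, fell by 3.07 ± 0.12. HELQ, a helicase of crosslink repair, read 7.08, 7.13 and 6.99 without the drug and 7.74, 7.92 and 7.73 with it. It rose by 0.73 ± 0.08 (adjusted p = 0.000155), the largest rise of the 38 genes, and its groups were apart.

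**Figure D2:**
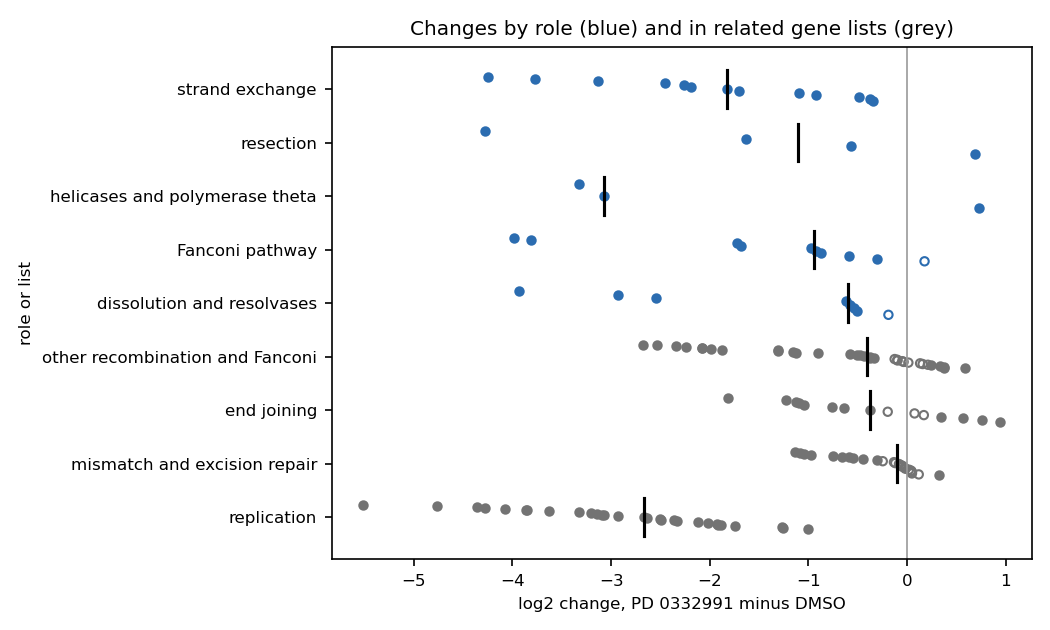
Log2 change (PD 0332991 minus DMSO) of each gene by role (blue) and in 4 related lists (grey). Filled circles passed the test and open circles did not, black lines are medians, and the vertical line marks no change. Each role spans deep falls (RAD51AP1, EXO1, BRIP1, UBE2T and BLM) and small changes or rises (RAD51B, RAD50, HELQ, FANCF and RMI2).

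In the Fanconi pathway 9 of 10 genes fell, with a median of -0.95, and FANCF did not pass. The deepest falls were in the ubiquitin-conjugating enzyme gene UBE2T and in FANCI, a protein that the pathway ubiquitinates. UBE2T was at 10.32, 10.25 and 10.65 in the DMSO arrays and at 6.50, 6.47 and 6.28 in the PD 0332991 arrays. It fell by 3.99 ± 0.12 (SE, n = 3 per group; limma adjusted p = 1.60e-07), and its groups did not overlap. FANCI fell by 3.81 ± 0.08, from 11.09 ± 0.08 (SD) to 7.28 ± 0.07.

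The genes of the core complex changed less. FANCG and FANCB fell by 1.73 ± 0.13 and 1.68 ± 0.12 (SE, n = 3 per group). FANCE, FANCL and FANCC fell by 0.97 ± 0.07, 0.92 ± 0.11 and 0.88 ± 0.09, FANCL being the catalytic ubiquitin ligase. FANCM, the DNA translocase that brings the core complex to the crosslink, fell by 0.59 ± 0.12 (limma adjusted p = 0.00531). FANCF, an adaptor of the core complex, read 5.59, 5.58 and 5.55 without the drug and 5.71, 5.81 and 5.73 with it. Its change of 0.18 ± 0.07 did not pass (adjusted p = 0.0693), although the groups did not overlap. It passed with array weights (adjusted p = 0.0317) and when dim genes were left out (0.0337). Under quantile normalization its change was 0.11 (limma adjusted p = 0.255), and with median centring it was 0.16 (0.254). The nuclease gene FAN1 fell by 0.31 ± 0.08 (adjusted p = 0.0173), and lost its call when DMSO replicate 1, DMSO replicate 2 or PD 0332991 replicate 1 was left out in turn (adjusted p = 0.0545 to 0.0694), and without both DMSO replicate 1 and PD 0332991 replicate 2 (0.105).

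Of the 8 genes of dissolution and resolution 7 fell, with a median of -0.60, and RMI2 did not pass. BLM, the helicase of the dissolution complex, was at 10.13, 9.94 and 9.78 in the DMSO arrays and at 6.04, 6.05 and 5.97 in the PD 0332991 arrays. It fell by 3.93 ± 0.10 (SE, n = 3 per group; limma adjusted p = 6.58e-08). Its partners changed far less, the topoisomerase gene TOP3A falling by 0.62 ± 0.10 and the scaffold gene RMI1 falling by 0.50 ± 0.11. RMI2, the small subunit that binds RMI1, read 5.12, 5.33 and 5.22 without the drug and 4.93, 5.22 and 4.95 with it, a change of -0.19 ± 0.10 with overlapping groups (adjusted p = 0.194). Its values were the only ones of the 38 genes to reach the array medians of 4.85 to 4.98, so it was not shown to be above background in every array. These medians are not a measured background, and the other genes were not tested against background either. It passed with array weights (adjusted p = 0.0105), without PD 0332991 replicate 2 (0.0432), and without that array and DMSO replicate 1 (0.0253).

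The nucleases that cut joint molecules fell by unequal amounts. GEN1, a resolvase that acts alone, went from a mean of 10.39 ± 0.12 (SD, n = 3) to 7.46 ± 0.16 and fell by 2.93 ± 0.10 (SE). EME1, the regulatory subunit of the MUS81 nuclease, fell by 2.55 ± 0.10, and MUS81 itself fell by 0.58 ± 0.07. SLX4, the scaffold that holds several such nucleases, fell by 0.54 ± 0.09 (limma adjusted p = 0.00165). Its DMSO arrays lay at 6.51 to 6.80 and its PD 0332991 arrays at 6.04 to 6.11.

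Unequal change within a complex was measured for 12 pairs of partners, as the difference between the 2 genes in each array. These pairs were chosen after the changes had been seen, so the differences are a description. The permutation p-values given below for them add no independent support. Some partners with small falls began low: RAD51B and RAD51D had DMSO means of 6.81 and 7.05, and MUS81 read 6.94 to 7.09. XRCC2 ended at a mean of 5.85 under the drug. Whether low signal limited the falls of such partners was not tested. TOP3A and FANCL began higher, at DMSO means of 8.41 and 9.78. BLM fell further than TOP3A by 3.31, and XRCC2 further than RAD51D by 3.39. MRE11 and RAD50 moved apart by 2.32 and NBN and RAD50 by 1.26. EME1 fell further than MUS81 by 1.97, BRCA1 further than PALB2 by 1.70, and UBE2T further than FANCL by 3.06. In 11 of the pairs the 3 DMSO differences and the 3 PD 0332991 differences did not overlap, and the exact two-sided permutation test gave p = 0.1, the smallest that 3 arrays against 3 allow (0.109 adjusted over the 12 pairs). The remaining pair was BRCA1 and BARD1, whose changes differed by 0.08, with a range from -0.08 to 0.29 over pairs of arrays (exact p = 0.4).

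**Figure D3:**
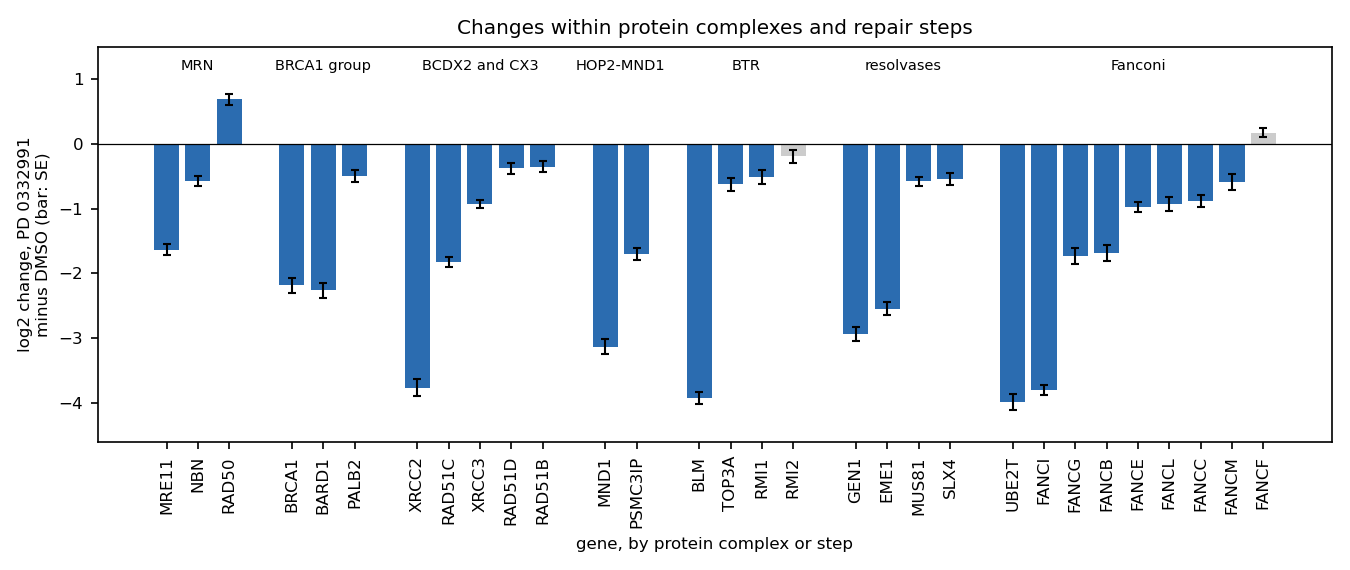
Log2 change (PD 0332991 minus DMSO; error bars, SE of the limma fit, 3 arrays per group) of genes grouped by protein complex or repair step, with bars from 0. Blue bars passed the test and grey bars (RMI2 and FANCF) did not. BLM stands at -3.93 beside TOP3A at -0.62 and RMI1 at -0.50, and RAD50 is above 0 beside MRE11 and NBN below it.

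Several of these genes start close to another gene that is transcribed the other way. In the RefSeq windows, 15 of the 35 genes had a start on the opposite strand within 1000 bases, and for 11 of them at least 1 such neighbour was measured, which gave 12 pairs. In 9 pairs both genes were called, in opposite directions. BRCA1 fell by 2.19, while NBR2, a long non-coding RNA gene at the same promoter region, rose by 0.77 ± 0.15 (SE, n = 3 per group; limma adjusted p = 0.00334). NBR2 read 8.38, 8.39 and 8.20 without the drug and 8.74, 9.25 and 9.30 with it, and the groups did not overlap. NBR1, an autophagy receptor gene beside another listed start of BRCA1, rose by 0.67 ± 0.09.

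The same opposition was seen at smaller falls. TOP3A fell by 0.62 and SMCR8, a gene of autophagy and lysosome regulation, rose by 0.87 ± 0.07 (SE, n = 3 per group; limma adjusted p = 3.29e-05). SLX4 fell by 0.54 and the nuclease gene DNASE1 rose by 0.75 ± 0.08, and XRCC3 fell by 0.92 and the endosomal gene ZFYVE21 rose by 0.60 ± 0.08. The neighbours of MRE11, FANCB and PALB2, which are ANKRD49, MOSPD2 and DCTN5, rose by 0.40, 0.38 and 0.27. HELQ showed the reverse order: it rose by 0.73 and MRPS18C, a mitochondrial ribosomal protein gene, fell by 0.60 ± 0.08. Both genes fell in the pair of GEN1 with SMC6, a subunit gene of a cohesin-like complex, which fell by 0.54 ± 0.07, and in that of EME1 with MRPL27, which fell by 0.58 ± 0.12. FERRY3, beside RAD51AP1, had a change of -0.20 ± 0.09 that did not pass (adjusted p = 0.115).

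Among the 11 pairs in which the repair gene fell, the neighbour was called higher in 8 (72.7%) and lower in 2 (18.2%). The same search over all tested genes called lower gave 717 pairings of a gene with its neighbour, with the neighbour higher in 21.5% and lower in 39.9%. There a pair in which both genes fell was counted once from each gene, which did not occur among the 11 pairs. BRCA1 enters 2 of the pairs, and the difference between these shares was not tested.

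**Figure D4:**
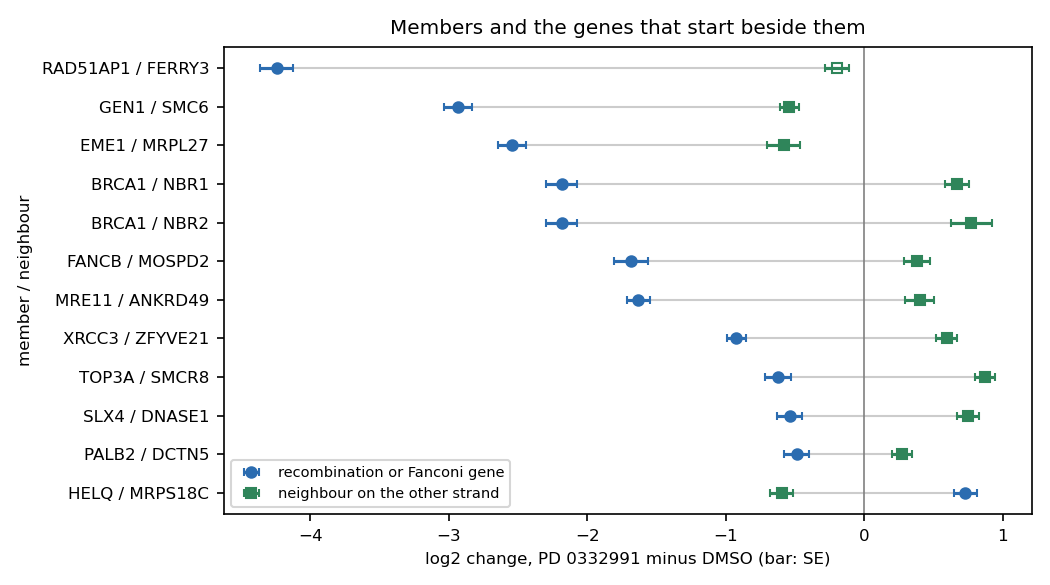
Log2 change (PD 0332991 minus DMSO; bars, SE) of each recombination or Fanconi gene (circles) and of the gene that starts beside it on the opposite strand (squares; open where the test was not passed). In 8 of the 12 pairs the circle lies below 0 and the square above it, and HELQ with MRPS18C shows the opposite order.

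Other genes of recombination and of the Fanconi pathway were mixed. Of 34 measured genes of a list of 45, 20 fell, 5 rose and 9 did not pass, with a median of -0.41. The largest changes were in MMS22L, which protects stalled forks and fell by 2.68 ± 0.10 (SE, n = 3 per group), and in USP1, which removes ubiquitin from the FANCI complex and fell by 2.53 ± 0.12. The ubiquitin ligase gene RFWD3 fell by 2.34 ± 0.08. WDR48, the activating partner of USP1, rose by 0.38 ± 0.08 (limma adjusted p = 0.00690). RAD52, a recombination mediator, had a change of 0.13 ± 0.07 that did not pass (adjusted p = 0.185).

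Repair genes of other pathways had shallower medians. Of 15 measured end joining genes of a list of 18, 8 fell, 4 rose and 3 did not pass, with a median of -0.37. XRCC4, a cofactor of the end joining ligase, fell by 1.82 ± 0.08 (SE, n = 3 per group) and RIF1, which restrains resection, fell by 1.23 ± 0.12, and the kinase subunit gene PRKDC fell by 1.12 ± 0.10. TP53BP1, which opposes BRCA1 at DNA ends, rose by 0.94 ± 0.07 and the ligase gene LIG4 rose by 0.76 ± 0.08. Of 26 measured mismatch and excision repair genes of a list of 32, 10 fell, 1 rose and 15 did not pass, with a median of -0.10. The glycosylase gene UNG fell by 1.14, ERCC8 fell by 1.08 and DDB2 fell by 1.04, the deepest falls of that list. In the replication list the deepest falls were those of the primase gene PRIM1, which fell by 5.51, of MCM10, which fell by 4.77, and of CDC6, which fell by 4.35. Whether these medians differ from that of the 38 genes was not tested.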

How the data were processed

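Total RNA of H1299 cells was measured on 6 arrays. Affymetrix Expression Console made the values, per the submitters' processing notes; for its version and normalization, the sources used here give nothing. The authors deposited log2 values, 65535 transcript clusters by 6 arrays (base judged by their range). That row number is the limit of an older spreadsheet format, so the table may hold only part of the array's clusters, which bears on the genes tested and on how many of each list were measured. The table holds no detection flags or scan dates, so batches were not examined, and the deposited scale may not give true ratios of RNA. Of the clusters, 22685 had 1 symbol in the platform annotation, and the row with the highest mean stood for a gene. PD 0332991 was compared with DMSO in R 4.3.3 with limma 3.58.1 (lmFit, eBayes), without a filter, adjusted by Benjamini-Hochberg over 22375 genes. The labels do not say that arrays come from separate cultures, so p-values reflect the spread among these samples alone, which may be technical. The number of arrays limits the precision (median standard error 0.0875). The pipeline was tested on simulated data with independent noise and far fewer changed genes than were called here, so that run checks the code only. Partner genes were compared with exact permutation tests (scipy 1.17.1).

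The members, roles and lists were chosen with earlier results of these data known. Values in every array are given for the members with the lowest and highest change in each role, for BRCA1 and for members that rose, and up to 3 called genes with the largest change are named per related list; TP53BP1, LIG4, WDR48, RAD52 and the marker genes were chosen after their values were seen. Some list members are not analysed here. The alternatives changed the scaling (median centring, quantile), the genes (dim ones dropped, rows averaged), the fit (trend with robust, array weights, replicate block, minimum change) or dropped single arrays. RefSeq promoter windows were matched by symbol.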

Additional observations from a re-analysis of the deposited data

How the results depend on the processing

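Across 14 alternatives other than a minimum change, 34 of the 38 genes kept both their direction and their side of the threshold; the exceptions were FAN1, FANCF, RAD51B and RMI2. With a minimum change of 1, the number of these genes called lower was 19 in place of 34, the number called higher was 0 in place of 2 by limma's treat (0 at an unadjusted p under 0.05), and the number of all genes called was 1238 in place of 8529, as that test asks for more than a nonzero change. Leaving out each array in turn gave 33 to 35 genes lower, 2 higher, a median of -1.39 to -1.29, and 7483 to 8075 of all genes called. Leaving out both DMSO replicate 1 and PD 0332991 replicate 2, chosen after seeing the data, gave 33 lower and 7634 genes called; FAN1 lost its call (adjusted p = 0.105), as did RAD51B (0.0527), and RMI2 passed (0.0253). With array weights 35 fell and 3 rose. The replicate numbers are not stated to mark shared cultures, so they were not taken as pairs. Same-numbered arrays did not deviate together (correlations of -0.30, -0.13 and 0.02), which cannot by itself show that they are unpaired. With the replicate number as a block 33 genes fell and 2 rose, and 7708 of all genes were called. FAN1 lost its call in that fit (limma adjusted p = 0.0571). The values of RMI2 reached the array medians, and whether low signal limited its result was not tested. No gene was tested against a measured background.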
